A study of Homo sapiens with 8 samples.

Results

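The genes of oxidative phosphorylation that are encoded in the nucleus were followed through 2 lists of m6A peaks from U2OS cells, a human osteosarcoma line. Members were chosen by gene name alone: names starting with NDUFA, NDUFB, NDUFC, NDUFS, NDUFV, UQCR or ATP5, names of COX followed by a digit, and the succinate dehydrogenase genes SDHA, SDHB, SDHC and SDHD, without pseudogene names. This gave 42 of the 13219 peaks of DF2 siRNA cells and 51 of the 15730 peaks of control cells. They lay in 43 of the 10506 genes named in either list. The naming rule also takes in assembly factors, non-coding RNAs named as antisense and a readthrough gene, so 27 of the 43 genes encode a subunit of a respiratory complex. No peak was listed under SDHA, SDHB, SDHC or SDHD.

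The 8 libraries were made from cytoplasmic RNA cut into short fragments. Of these, 2 were m6A immunoprecipitates of cells given siRNA against YTHDF2 (DF2), 2 were the inputs of those cells, 2 were m6A immunoprecipitates of control cells and 2 were the control inputs. The labels number the DF2 siRNA libraries without saying whether the numbers mark different siRNAs or repeats of 1 siRNA, and nothing says that the pairs were separate cultures. What the control cells were given is not stated in the labels used here. Each list belongs to both immunoprecipitates of its condition, so there is 1 list per condition and no replicate check, and no difference between conditions was tested.

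Oxidative phosphorylation passes electrons from NADH and succinate through complexes I to IV of the inner mitochondrial membrane and uses the resulting proton gradient to make ATP in complex V. Most subunits come from nuclear genes, are translated in the cytoplasm and are imported, while a few core subunits are made from mitochondrial DNA. m6A is a methylated adenosine found in many mRNAs, often near the stop codon, and YTHDF2 is a cytoplasmic protein that binds it and directs the bound mRNA to decay. A peak marks a stretch of exon enriched by the m6A antibody. The lists give no RNA level, so fewer cells with a transcript, less of it per cell and a smaller methylated share cannot be told apart.

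The depth of the libraries is unknown. YTHDF2 itself had 1 peak in each list, with 52.3-fold enrichment and the score 185 in DF2 siRNA cells and 124-fold enrichment and the score 4226 in control cells, which is no measure of its mRNA level. Of 8 genes typical of osteoblasts and mesenchymal cells, RUNX2, COL1A1, COL5A1 and TNC each had peaks in DF2 siRNA and in control cells, and SPP1, COL1A2, ALPL and VIM had none. None of 6 markers of blood, epithelium, liver and muscle (PTPRC, CD3E, EPCAM, KRT19, ALB, MYH7) had a peak. A missing peak does not show that a transcript is missing. Fold enrichment, score and the −log10 value of a peak are the authors' values. They are set here only against other peaks of the same list, except where alternative limits are applied to both lists near the end. The reason is that the −log10 value rests on an FDR in DF2 siRNA cells but on a p-value in control cells. A given interval also scored lower in DF2 siRNA cells (median ratio 0.425 over intervals identical in both lists).

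Several member peaks covered or adjoined the annotated start of their gene, and the sequence there is shown for those with a GGAC, a common core of the m6A consensus. RefSeq promoter windows of GRCh38.p14, from 250 bases before to 50 bases after a gene's start, were found for 38 of the 43 members. A peak lay over the window of 18 of them, 12 in DF2 siRNA cells and 17 in control cells. This was counted for members only, so there is no share over all genes to set it against. The letters GGAC, searched on the transcribed strand only and with no other motif, occurred in the covered stretch of 8 members, 4 in DF2 siRNA cells and 7 in control cells. Of all 35116 windows, 66.3% hold GGAC over their 300 bases. Each line below gives 30 bases in transcript direction, 5′ to 3′, with GGAC in capitals.
ATP5J, chr21:25735208-25735237, minus strand, in both lists: accctaacgaacaGGACgctgactcggagg
ATP5J, chr21:25735072-25735101, minus strand, in both lists: aggctgtgccaggGGACccggaagcactta
NDUFA7, chr19:8321351-8321380, minus strand, in both lists: ccttcagtatcgcGGACggaagatggcgtc
NDUFB11, chrX:47144776-47144805, minus strand, in both lists: caaatcagatctgGGACctatatagcgtgg
UQCR11, chr19:1605428-1605457, minus strand, in the DF2 siRNA list: agccgggtcagctGGACagggtcatcctga
COX10-AS1, chr17:14069421-14069450, minus strand, in the control list: aggtgatcggaagGGACtggctggagtgtg
NDUFAF1, chr15:41402486-41402515, minus strand, in the control list: gggaaaagcagatGGACctatacgggtaaa
ATP5L, chr11:118401367-118401396, plus strand, in the control list: ttgccggttttccGGACctctacgagtggc
ATP5L, chr11:118401517-118401546, plus strand, in the control list: tgcaaagatctttGGACatttaagtatctt
UQCRC1, chr3:48609843-48609872, minus strand, in the control list: ggaatggggagatGGACtgcacggcgggcg

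The covered stretches differ in length, and so does the share of all promoter windows with GGAC in the same stretch. That share was 66.3% for ATP5J in both lists, which had 2 matches over the whole window. For NDUFB11 it was 66.3% in DF2 siRNA cells and 58.6% in control cells, with 1 match. It was 24.9% for the longer stretch of NDUFA7 in both lists, 26.7% for UQCR11 in DF2 siRNA cells, and 29.3% and 25.6% for COX10-AS1 and NDUFAF1 in control cells, with 1 match each. For ATP5L and UQCRC1 it was 50.8% and 31.1%, with 2 and 5 matches. In the members with a covered stretch but no GGAC, the share ran from 9.64% (NDUFV3, control cells) to 52.8% (NDUFS1, control cells). Whether GGAC was more common in the members than in all windows was not tested. The GGAC began at base 9 of the transcript in NDUFA7, at base 19 in UQCR11 and at base 22 in COX10-AS1. In ATP5L and UQCRC1 it lay upstream of the RefSeq gene. In ATP5J, NDUFB11 and NDUFAF1 it lay upstream of the start the window is set on but inside the RefSeq gene, because that start is 599, 789 and 530 bases downstream of the outermost start of the gene. The peaks of ATP5L and UQCRC1 lay wholly upstream of the RefSeq gene, with 52 and 148 bases between peak and gene.

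Of the 43 member genes, 29 had a peak in both lists, which is 67.4% (51.5 to 80.9%), against 75.2% of all 10506 genes. Only NDUFA11 and ATP5SL had a peak in DF2 siRNA cells alone, 4.65% (0.568 to 15.8%), against 5.76% of all genes. Peaks in control cells alone were found in 12 members, 27.9% (15.3 to 43.7%), against 19.0% of all genes. All 3 intervals hold the share of all genes, so the members' split is near the background. The control list is the longer one. With it shortened to the length of the DF2 siRNA list by fold enrichment, 5 members had a peak in DF2 siRNA cells alone and 8 in control cells alone. The shares of all genes in lists of equal length were not computed, so these 2 counts have no background beside them. The intervals are exact binomial ones (Clopper-Pearson, 95%) that allow for counting error alone. Among 47 genes of mitochondrial ribosomal proteins, which are also nuclear-encoded and imported, 37 had a peak in both lists, 2 in DF2 siRNA cells alone and 8 in control cells alone (17.0%). Among 11 glycolysis genes with a peak these counts were 8, 1 and 2. Of the members with a peak in DF2 siRNA cells, 93.5% also had one in control cells, and of those with a peak in control cells 70.7% also had one in DF2 siRNA cells.

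**Figure D1:**
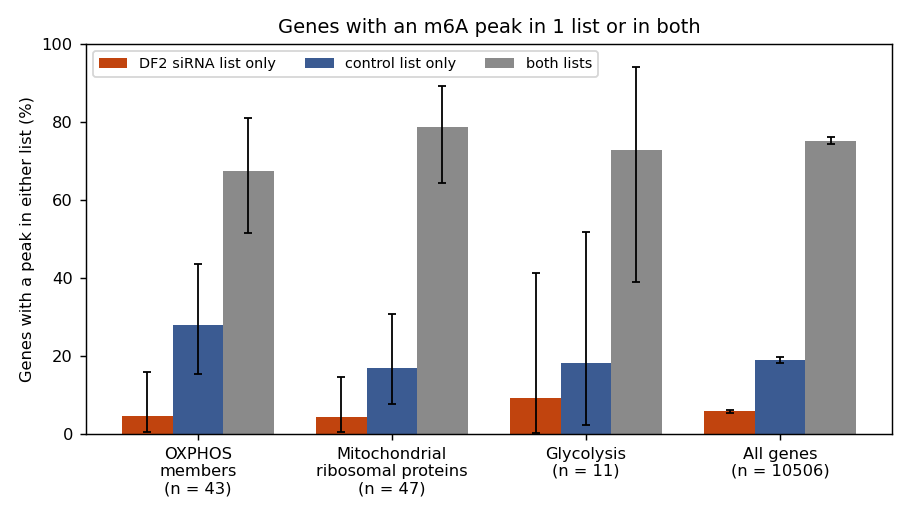
Bars give the percent of genes (vertical axis) with a peak in the DF2 siRNA list only, the control list only or both, among the 43 OXPHOS members, 47 mitochondrial ribosomal protein genes, 11 glycolysis genes and all 10506 genes. Error bars are 95% exact binomial intervals. The control-only bar of the members stands at 27.9% and that of all genes at 19.0%, inside the members' interval.

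Complex I, the NADH dehydrogenase, held most of the subunits with a peak. Of 37 nuclear-encoded subunits listed, 15 had one: 12 in both lists, NDUFA11 in DF2 siRNA cells alone, and NDUFA6 and NDUFS1 in control cells alone. These counts go by the authors' gene names. The peaks of NDUFA2, NDUFB2 and NDUFB9 lay outside the RefSeq gene. Those of NDUFS3 and NDUFS7, and the control peak of NDUFB11, shared bases with a peak of another gene. Complex III, which passes electrons from ubiquinol to cytochrome c, had 6 of 10 subunits with a peak, 2 in both lists and 4 in control cells alone. Complex IV (cytochrome c oxidase) and complex V (ATP synthase) each had 3 of 18 subunits with a peak, 2 in both lists and 1 in control cells alone. Complex II had 0 of 4. Over these 87 subunits 60 had no peak in either list. The lists name only genes with a peak, so the share of all genes without one is not known. Of the 27 subunits with a peak, 29.6% (13.8 to 50.2%) had one in control cells alone, an interval that holds the 19.0% of all genes, and the counts of single complexes are too small to be read apart from it.

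**Figure D2:**
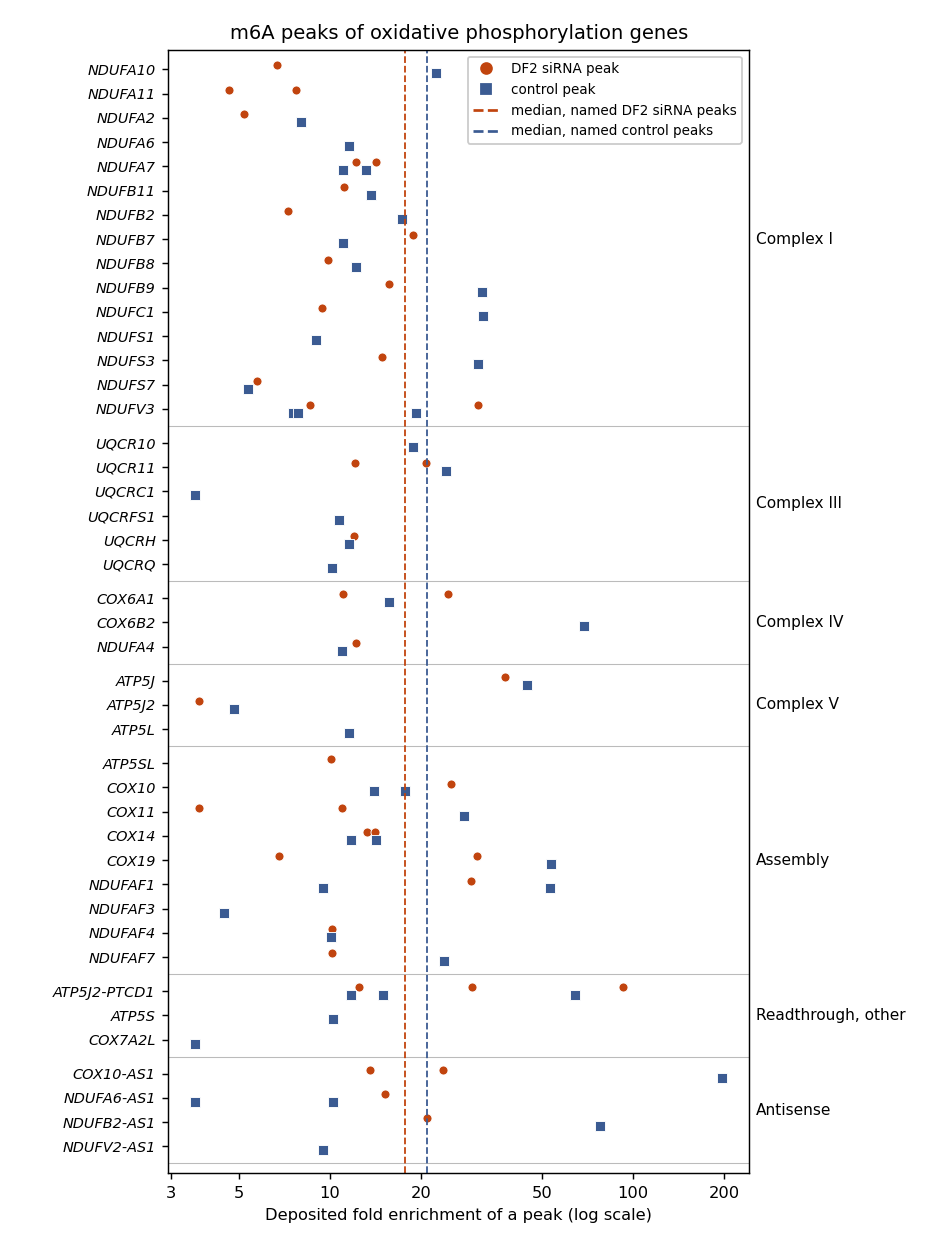
Each point is a peak of a member gene (rows, grouped by complex or role), placed by its deposited fold enrichment on a log axis, in the DF2 siRNA list (circles) or the control list (squares). Dashed lines are the medians over all peaks with a gene name, 17.7 in DF2 siRNA cells and 20.9 in control cells, and most member peaks lie left of the line of their own list.

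Among the complex I subunits with peaks in both lists, NDUFV3, an accessory subunit of the NADH-binding module, had the highest fold enrichment in DF2 siRNA cells. Its main peak there ran over chr21:42903773-42909159 (plus strand, 800 nt of exon, labelled coding, stop codon and 3′ UTR), with a fold enrichment of 30.8, a score of 274 and a −log10 value of 6.98. In control cells the same peak was 1000 nt long, chr21:42903573-42909159, with 19.2, 431 and 3.78. A second NDUFV3 peak in the 3′ UTR, chr21:42912360-42912959 in DF2 siRNA cells and chr21:42912360-42913159 in control cells, had fold enrichments of 8.59 and 7.88, scores of 10 and 17 and −log10 values of 3.59 and 1.87. Control cells alone had another NDUFV3 peak, in the 5′ UTR at chr21:42879644-42893293, with a fold enrichment of 7.56, a score of 21 and a −log10 value of 1.51, and it ended 15 bases upstream of the RefSeq gene. NDUFV3 thus had 2 peaks in DF2 siRNA cells and 3 in control cells, and the DF2 siRNA peaks lay within the control peaks.

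NDUFS3, a core subunit of the ubiquinone-binding module, had the highest score of any member in control cells and one of the 5 highest in DF2 siRNA cells. The score was 575 in DF2 siRNA cells, over 400 nt of exon in chr11:47571529-47579194 (plus strand), and 2394 in control cells, over 600 nt in chr11:47565736-47579194. Fold enrichments were 14.8 and 30.8 and −log10 values 2.00 and 6.25 in DF2 siRNA and control cells, and the label ran from the 5′ UTR to the 3′ UTR in both. The RefSeq gene NDUFS3 starts at base 47579074, so both peaks began upstream of the gene and ended near its start. These peaks shared 215 nt in DF2 siRNA cells and 273 nt in control cells with a peak of PTPMT1, a mitochondrial phosphatase gene on the same strand, which scored 561 in DF2 siRNA cells and 2318 in control cells. In both lists the NDUFS3 peak also shared bases with a peak of KBTBD4 on the opposite strand. Whether peaks were called by strand is not stated, and reads of NDUFS3 and of these neighbours cannot be told apart.

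NDUFS7, the core subunit that carries the last iron-sulfur cluster before ubiquinone, was the 1 member with a peak in both lists whose peaks did not overlap. Its DF2 siRNA peak was in the 3′ UTR at chr19:1394657-1395256 (plus strand, 600 nt), with a fold enrichment of 5.76, a score of 6 and a −log10 value of 1.97. Its control peak lay directly upstream at chr19:1394257-1394656 (400 nt, labelled coding, stop codon and 3′ UTR), with 5.38, 6 and 2.70. Both stood low in their lists, at percentiles 5.81 and 3.90 of fold enrichment in DF2 siRNA and control cells. Both shared bases with a peak of the antisense gene AC005329.7 on the minus strand, which had fold enrichments of 122 in DF2 siRNA cells and 43.4 in control cells. Reads of NDUFS7 and of its antisense partner cannot be told apart where strand use is not given.

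The accessory subunit NDUFA7 was listed under 2 Ensembl gene IDs with overlapping peaks of 200 nt each, identical in both lists. In DF2 siRNA cells the peak at chr19:8316568-8321379 (minus strand, labelled from 5′ UTR to 3′ UTR) had a fold enrichment of 12.1, a score of 168 and a −log10 value of 1.69. In control cells that interval had 11.1, 440 and 1.52. The other peak, at chr19:8319500-8321396 (5′ UTR and coding), had 14.2, 155 and 2.26 in DF2 siRNA cells and 13.1, 423 and 2.05 in control cells. The peaks share 122 nt, so they are not independent measurements.

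NDUFA11, an accessory subunit of the membrane arm, was the only complex I subunit with peaks in DF2 siRNA cells alone. It had 2 of them, both labelled as 3′ UTR and both on the minus strand. The peak at chr19:5892315-5892914 (600 nt, with the stop codon) had a fold enrichment of 4.63, a score of 4 and a −log10 value of 2.34, and that at chr19:5894899-5895298 (400 nt) had 7.74, 14 and 1.49. These values stand at percentiles 2.23 and 11.7 of fold enrichment in the DF2 siRNA list, among its weakest peaks.

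NDUFA6, an accessory subunit of the LYR family, had a peak in control cells alone at chr22:42085741-42087085 (minus strand, 600 nt, labelled from 5′ UTR to 3′ UTR), with a fold enrichment of 11.6, a score of 362 and a −log10 value of 1.65. Its score stood at percentile 69.4 of the control list and its fold enrichment at percentile 25.9. NDUFS1, the largest core subunit and a carrier of iron-sulfur clusters, had a control peak of 200 nt in the 5′ UTR at chr2:206159404-206159603 (minus strand), with 8.97, 41 and 1.57. It covered the RefSeq start of NDUFS1 and held no GGAC in the covered stretch.

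NDUFB7 and NDUFB11, accessory subunits of the membrane arm, had overlapping peaks of unequal length. For NDUFB7 the peak was 331 nt in DF2 siRNA cells (chr19:14566078-14566907, minus strand) and 131 nt in control cells (chr19:14566078-14566208), with fold enrichments of 18.8 and 11.1 and scores of 279 and 434. For NDUFB11 it was 1000 nt in DF2 siRNA cells (chrX:47144505-47145504, minus strand, 5′ UTR and coding, fold enrichment 11.1, score 266, −log10 value 3.26) and 800 nt in control cells (chrX:47144705-47145504, 5′ UTR only, 13.7, 31 and 3.63). The control peak of NDUFB11 shared 200 nt with a peak of RBM10 on the opposite strand.

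The remaining 6 complex I subunits had 1 peak in each list, and the peaks overlapped. NDUFC1 had the highest fold enrichment of them in control cells, 9.43 in DF2 siRNA cells and 32.1 in control cells, over an identical interval of 1000 nt labelled 5′ UTR (chr4:139295953-139302551, minus strand). NDUFB9 had 15.6 and 31.9, NDUFA10 had 6.69 and 22.4 in its 3′ UTR, NDUFB2 had 7.28 and 17.3, NDUFB8 had 9.88 and 12.2 over its 5′ UTR and coding sequence, and NDUFA2 had 5.22 and 8.05, in DF2 siRNA and control cells. In all 6 the fold enrichment of the DF2 siRNA peak was below the median of its list, and in 3 (NDUFC1, NDUFB9 and NDUFA10) that of the control peak was above the median of its list. The peaks named NDUFA2, NDUFB2 and NDUFB9 lay downstream of the RefSeq gene, by 6257, 15100 and 17902 bases in DF2 siRNA cells, so they rest on longer gene models than RefSeq has.

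In complex III, UQCRH and UQCR11 had peaks in both lists. UQCRH, the hinge protein beside cytochrome c1, had an identical peak of 200 nt over its 5′ UTR and coding sequence in both lists (chr1:46303631-46309110, plus strand). Its score of 548 in DF2 siRNA cells and 1115 in control cells was the fourth highest of the members in either list, whereas its fold enrichments, 12.0 and 11.6, stood at percentiles 30.9 and 26.1, with −log10 values of 1.31 and 1.65. UQCR11, a small accessory subunit, had a 3′ UTR peak of 951 nt at an identical interval in both lists (chr19:1597172-1598122, minus strand), with fold enrichments of 20.7 and 24.2, scores of 213 and 464 and −log10 values of 4.62 and 5.24 in DF2 siRNA and control cells. A second UQCR11 peak, of 200 nt over the 5′ UTR and coding sequence (chr19:1602358-1605490), was in DF2 siRNA cells alone, with a fold enrichment of 12.1, a score of 347 and a −log10 value of 1.51.

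UQCR10, UQCRQ, UQCRFS1 and UQCRC1 had peaks in control cells alone. UQCR10, a small subunit, had one of 600 nt at chr22:29767569-29770238 (plus strand, labelled coding, stop codon and 3′ UTR), with a fold enrichment of 18.8, a −log10 value of 3.57 and a score of 705, the fifth highest of the members in that list. UQCRFS1, the Rieske iron-sulfur protein, had a stop codon peak of 400 nt at chr19:29207396-29207795 (minus strand), with 10.7, 1.40 and a score of 400. UQCRQ, another small subunit, had a peak of 200 nt without a feature label at chr5:132867160-132867359 (plus strand), with 10.2, 1.82 and a score of 33. UQCRC1, a core protein without a redox centre, had one of 200 nt in the 5′ UTR at chr3:48609795-48609994 (minus strand), with a fold enrichment of 3.58, a −log10 value of 1.51 and a score of 3, the lowest score in the list. The 4 control-only peaks of complex III thus ran from the lowest score of the list to percentile 82.3.

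In complex IV, COX6A1, the isoform of subunit VIa found in most tissues, had the highest score of all members in DF2 siRNA cells and the second highest in control cells. Its peak over the 5′ UTR, coding sequence and stop codon (chr12:120438090-120438638, plus strand, 400 nt) was identical in both lists. It had a fold enrichment of 24.4, a score of 1409 and a −log10 value of 3.82 in DF2 siRNA cells, and 15.7, 2063 and 2.32 in control cells. In DF2 siRNA cells it shared 175 nt with a peak listed under AL021546.6 on the same strand. A second COX6A1 peak of 200 nt over the stop codon (chr12:120440399-120440598) was in DF2 siRNA cells alone, with 11.1, 219 and 1.41. NDUFA4, now counted as a complex IV subunit, had an identical peak of 200 nt over its 5′ UTR and coding sequence, with fold enrichments of 12.2 and 10.9 and scores of 196 and 496 in DF2 siRNA and control cells.

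COX6B2, a testis isoform of subunit VIb, had a peak in control cells alone. It covered 600 nt of the 3′ UTR at chr19:55350121-55350720 (minus strand) and had a fold enrichment of 68.9, a score of 112 and a −log10 value of 32.4. Among the 12 control-only members it was the only one with a fold enrichment above the median of the list, at percentile 88.2, whereas its score stood at percentile 45.3.

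In complex V, ATP5J, the F6 protein of the peripheral stalk, had the second highest fold enrichment of the members in DF2 siRNA cells. Its peak of 600 nt at chr21:25734874-25735473 (minus strand, labelled 5′ UTR, coding and stop codon) was identical in both lists, with a fold enrichment of 37.7, a score of 179 and a −log10 value of 9.87 in DF2 siRNA cells, and 44.8, 528 and 11.5 in control cells. It covers the whole RefSeq promoter window, with both GGAC printed above. ATP5J2, subunit f, had weak peaks that overlapped between the lists. That in DF2 siRNA cells, chr7:99448550-99448949 (minus strand, 400 nt, no feature label), had a fold enrichment of 3.71 and a −log10 value of 1.66 and was at the lowest score of its list, 3. That in control cells, chr7:99448750-99449149 (400 nt, 3′ UTR), had 4.83, 2.06 and a score of 5. Both lay downstream of the RefSeq gene, by 9245 bases in DF2 siRNA cells and 9045 bases in control cells. ATP5L, subunit g, had a peak of 200 nt in control cells alone, in the 5′ UTR at chr11:118401354-118401553 (plus strand), with 11.6, 2.42 and a score of 36.

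Assembly factors put subunits and cofactors in place without staying in the complex. COX10, which makes haem O for complex IV, COX11 and COX19, which handle its copper, COX14, which binds newly made COX1, and NDUFAF1, NDUFAF4 and NDUFAF7, which act on complex I, had peaks in both lists, and NDUFAF3 had one in control cells alone. Counting NDUFAF8, listed as C17orf89 in these files and so outside the naming rule, 9 of 17 listed assembly factors of these name families had a peak, 8 of them in both lists and 0 in DF2 siRNA cells alone. Of all genes in the lists, 75.2% had a peak in both and 5.76% in DF2 siRNA cells alone. The 9 factors are too few to be read apart from these shares.

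COX19 had a long 3′ UTR peak in both lists, of 1400 nt in DF2 siRNA cells (chr7:966631-968030, minus strand; fold enrichment 30.6, score 72, −log10 value 9.63) and 1600 nt in control cells (chr7:966431-968030; 53.6, 204 and 17.9). Its fold enrichment was the fourth highest of the members in DF2 siRNA cells and the fifth highest in control cells. A second peak named COX19 in DF2 siRNA cells, chr7:898778-899202 (342 nt, labelled coding, stop codon and 3′ UTR), had 6.81, 9 and 1.87, lay 65649 bases downstream of the RefSeq gene and lay wholly on a peak of ADAP1. NDUFAF1 had a peak of 600 nt in DF2 siRNA cells (chr15:41394875-41396916, minus strand, coding and stop codon), with a fold enrichment of 29.3, a score of 172 and a −log10 value of 6.95. In control cells that NDUFAF1 peak was 800 nt (chr15:41394175-41396916, with the 3′ UTR), with 53.4, 679 and 14.0. A second NDUFAF1 peak there, of 400 nt in the 5′ UTR (chr15:41397117-41402519), had 9.50, 35 and 1.90.

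COX10 had a peak over the stop codon in both lists, of 600 nt in DF2 siRNA cells (chr17:14192118-14207305, plus strand; fold enrichment 25.1, score 119, −log10 value 5.98) and 400 nt in control cells (chr17:14206906-14207305; 13.98, 166 and 2.52). Control cells alone had a second COX10 peak of 600 nt at chr17:14074370-14077247, also labelled coding, stop codon and 3′ UTR, with 17.8, 211 and 5.59. The best COX10 peaks of the lists therefore lay apart, since the second peak had the higher fold enrichment in control cells. COX11 had an identical peak over the 5′ UTR and coding sequence (chr17:54968386-54968785, minus strand, 400 nt), with 10.9, 55 and 2.03 in DF2 siRNA cells and 27.7, 162 and 7.26 in control cells. A second COX11 peak in DF2 siRNA cells, chr17:54953390-54953589 (200 nt), carried no feature label and was at the lowest score of the list, 3. It had a fold enrichment of 3.71 and a −log10 value of 1.66.

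COX14 had 2 peaks at identical intervals in both lists. The first, of 200 nt in the 5′ UTR (chr12:50112179-50112378, plus strand), had a fold enrichment of 13.3, a score of 109 and a −log10 value of 2.13 in DF2 siRNA cells and 11.7, 173 and 1.78 in control cells. It shared 105 nt with a peak of RP4-605O3.4 on the same strand. The second COX14 peak, of 473 nt from the 5′ UTR to the 3′ UTR (chr12:50118502-50120457), had 14.04, 276 and 2.06 in DF2 siRNA cells and 14.2, 562 and 2.29 in control cells.

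NDUFAF4 and NDUFAF7 had 1 overlapping peak in each list, with fold enrichments of 10.2 and 10.1 for NDUFAF4 and of 10.2 and 23.8 for NDUFAF7 in DF2 siRNA and control cells. NDUFAF3 had a control peak of 400 nt in the 5′ UTR at chr3:49021099-49021498 (plus strand), with a fold enrichment of 4.48, a score of 4 and a −log10 value of 2.06, near the lowest values of the list. ATP5SL, now named DMAC2, an assembly factor of complex I, had a stop codon peak of 400 nt in DF2 siRNA cells alone at chr19:41431699-41432098 (minus strand), with 10.1, 56 and 1.40. ATP5S, now named DMAC2L, had a stop codon peak of 400 nt in control cells alone at chr14:50325711-50326110 (plus strand), with 10.3, 23 and 2.67. COX7A2L, a factor of respiratory supercomplexes, had one of 400 nt in control cells alone at chr2:42333551-42349418 (minus strand, labelled coding, stop codon and 3′ UTR), with 3.58, 3 and 1.51, again the lowest score of the list.

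The readthrough gene ATP5J2-PTCD1 had 3 peaks in each list, and each shared bases with a peak of PTCD1 on the same strand, so its values belong to both genes. The peak at chr7:99419749-99423832 (minus strand, 459 nt, coding and 3′ UTR) had the highest fold enrichment of the members in DF2 siRNA cells, 93.1, with a score of 656 and a −log10 value of 25.5. In control cells this identical interval had 64.4, 1247 and 16.8. The PTCD1 peaks that shared its bases had fold enrichments of 91.2 in DF2 siRNA cells and 70.8 in control cells. A second ATP5J2-PTCD1 peak, chr7:99424870-99429155 (800 nt, coding), had 12.4, 66 and 2.18 in DF2 siRNA cells and 11.8, 138 and 1.82 in control cells. The third ran over chr7:99434981-99448165 in DF2 siRNA cells (600 nt, labelled coding, stop codon and 3′ UTR; 29.5, 161 and 7.91) and over chr7:99434981-99466197 in control cells (800 nt, labelled 5′ UTR, coding and 3′ UTR; 14.9, 422 and 2.78).

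All 4 non-coding RNAs named after a member gene were labelled ncRNA throughout, and 3 had peaks in both lists. RefSeq names COX10-AS1 as COX10-DT and NDUFA6-AS1 as NDUFA6-DT, and places them outside the genes COX10 and NDUFA6. COX10-AS1 had 2 peaks in DF2 siRNA cells, at chr17:14029848-14030647 (minus strand, 800 nt; fold enrichment 23.6, score 42, −log10 value 10.9) and chr17:14034041-14069295 (400 nt; 13.6, 26 and 4.09). In control cells a single COX10-AS1 peak of 1600 nt, chr17:14029848-14069495, spanned both, with 197.5, 517 and 74.8, the highest fold enrichment of the members in that list (percentile 99.8). NDUFB2-AS1 had the second highest control value, with a fold enrichment of 20.96, a score of 36 and a −log10 value of 7.37 over 848 nt in DF2 siRNA cells (chr7:140695336-140696183, minus strand) and 78.0, 141 and 37.0 over 1048 nt in control cells (chr7:140695336-140696383). NDUFA6-AS1 had 1 peak of 600 nt in DF2 siRNA cells (chr22:42091131-42112343, plus strand; 15.3, 32 and 4.42) and 3 in control cells, of which the first (chr22:42091131-42091552, 400 nt; 10.2, 31 and 2.50) overlapped it. The other 2 NDUFA6-AS1 peaks of control cells, chr22:42125330-42132152 and chr22:42136225-42136424, were of 200 nt each and at the lowest score of the list, 3. Each had a fold enrichment of 3.58 and a −log10 value of 1.51. NDUFV2-AS1 had a control peak of 400 nt alone (chr18:9136246-9136645, minus strand), with 9.47, 12 and 3.74.

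**Figure D3:**
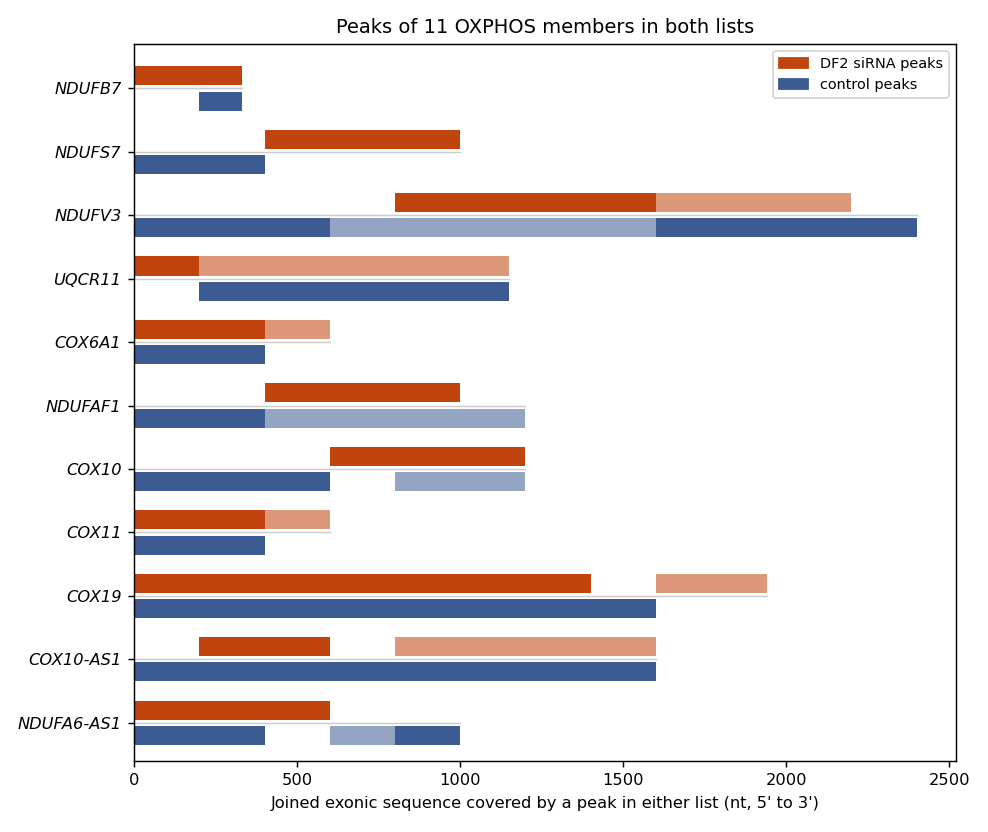
Each row joins, 5′ to 3′, the exonic sequence of 1 gene covered by a peak in either list (horizontal axis, nt), with the DF2 siRNA peaks above the control peaks. Lighter shades mark further peaks of the same gene. NDUFS7 shows no shared sequence in 1000 nt, and COX10-AS1 shows 2 DF2 siRNA peaks over 1 control peak.

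How much of the covered sequence was common to both lists varied among the 11 members drawn in the map of joined exon sequence, which have several peaks or peaks of unequal place. All of the DF2 siRNA sequence of NDUFV3 (1400 nt), COX10-AS1 (1200 nt) and NDUFAF1 (600 nt) lay within the control peaks of these genes (2400, 1600 and 1200 nt). The reverse held for UQCR11, COX6A1, COX11 and NDUFB7, whose control peaks (951, 400, 400 and 131 nt) lay wholly within the DF2 siRNA peaks (1151, 600, 600 and 331 nt). For COX19 the shared length was 1400 nt, of 1742 nt in DF2 siRNA cells and 1600 nt in control cells. NDUFA6-AS1 shared 400 nt, of 600 nt in DF2 siRNA cells and 800 nt in control cells, and COX10 also shared 400 nt, of 600 nt and 1000 nt.

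Of the 42 member peaks of DF2 siRNA cells, 34 (81.0%, 65.9 to 91.4%) shared at least 1 base on the same strand with a control peak, against 87.5% of all DF2 siRNA peaks. Of the 51 member peaks of control cells, 33 (64.7%, 50.1 to 77.6%) shared bases with one of DF2 siRNA cells, against 71.9% of all control peaks. Both intervals hold the share of all peaks. The peaks of mitochondrial ribosomal protein genes were overlapped in 93.2% of cases in DF2 siRNA cells and 75.0% in control cells. Identical intervals were found for 14 member peaks, which is 33.3% of those in DF2 siRNA cells and 27.5% of those in control cells, against 35.1% and 29.5% of all peaks with a gene name.

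Overlap went with rank in the list. All 12 member peaks of DF2 siRNA cells with a fold enrichment above the median of their list were overlapped, as were 13 of 14 in control cells, the exception being COX6B2. At or below the median, 22 of 30 in DF2 siRNA cells (73.3%) and 20 of 37 in control cells (54.1%) were overlapped. Over all peaks with a gene name these shares were 98.6% and 94.7% above the median and 76.3% and 49.0% at or below it, so the members follow the same gradation. Split by score, 18 of 20 member peaks above the median were overlapped in DF2 siRNA cells and 21 of 25 in control cells. At or below it, 16 of 22 and 12 of 26 were overlapped. Among all peaks with a gene name, the shares above the median score were 94.11% in DF2 siRNA cells and 91.72% in control cells. At or below it they were 80.86% and 51.97%, so the whole lists show this split too. Whether the members differ from these shares was not tested.

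**Figure D4:**
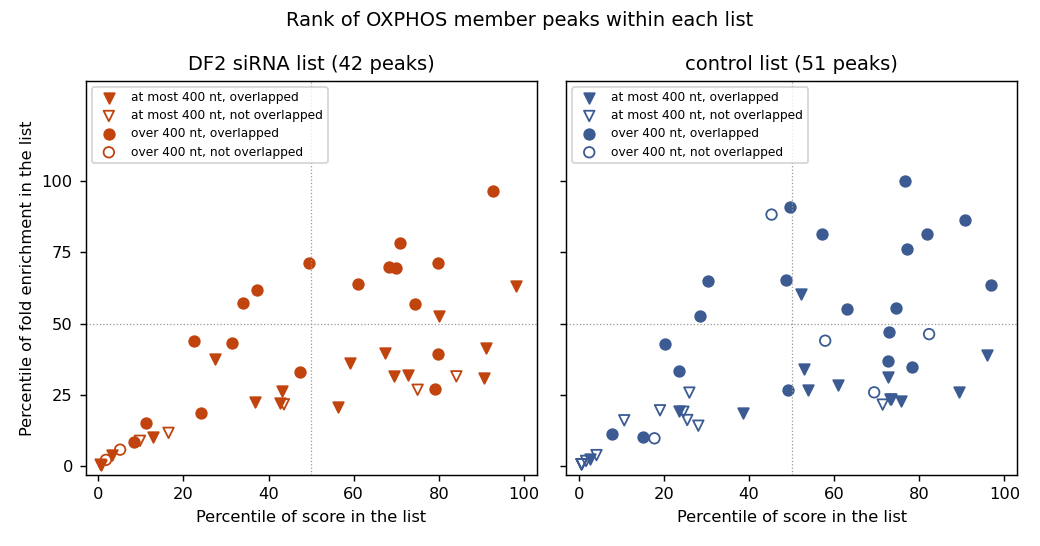
Each symbol is a member peak, placed by the percentile of its score (horizontal axis) and of its fold enrichment (vertical axis) among all peaks of its list, for DF2 siRNA cells at left and control cells at right. Filled symbols overlap a peak of the other list, open ones do not, and triangles are peaks of at most 400 nt. All symbols above the median of fold enrichment are filled except COX6B2 of the control list.

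The member peaks had low fold enrichments within their lists and middling scores. The median fold enrichment was 12.2 (10.2 to 14.8) in DF2 siRNA cells, against 17.7 over all peaks of that list with a gene name, and 11.8 (10.9 to 15.7) in control cells, against 20.9. The median member stood at percentile 31.8 (22.4 to 41.5) of fold enrichment in DF2 siRNA cells and at percentile 26.8 (22.7 to 39.0) in control cells, with 28.6% and 27.5% of member peaks above the median of the list. Intervals of medians are binomial order-statistic intervals at 95%. The median length of member peaks was 400 nt of exon (400 to 600 nt) in both lists, against 600 nt over all peaks with a gene name. The upper end of the interval reaches the value of all peaks. Ranked among peaks of at most 400 nt alone, the median of the members of that length stood at percentile 51.1 in DF2 siRNA cells and 44.5 in control cells, which are ranks among short peaks and not in the whole lists. Median scores, 69 in DF2 siRNA cells and 141 in control cells, were close to the 74 and 144 of all peaks with a gene name.

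The spread among members was wide. Fold enrichment ran from 3.71 (ATP5J2, and the second COX11 peak) to 93.1 in DF2 siRNA cells and from 3.58 to 197.5 in control cells. Scores ran from 3 to 1409 in DF2 siRNA cells and from 3 to 2394 in control cells. At the lowest score stood 2 of the 42 member peaks in DF2 siRNA cells and 4 of the 51 in control cells, against 1.10% and 1.37% of all peaks. A −log10 value of less than 2 above the lower limit of the list was found for 26 member peaks in DF2 siRNA cells (61.9%) and 30 in control cells (58.8%), against 37.3% and 32.0% of all peaks. Mitochondrial ribosomal protein genes had median fold enrichments of 20.4 in DF2 siRNA cells and 21.6 in control cells.

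The authors' feature labels place the member peaks over much of the transcript, and a peak can carry several. The stop codon was included in 17 of 42 DF2 siRNA peaks (40.5%, 25.6 to 56.7%) and 19 of 51 control peaks (37.3%, 24.1 to 51.9%), against 43.7% and 42.8% of all peaks with a gene name. The 5′ UTR was included in 35.7% (21.6 to 52.0%) in DF2 siRNA cells and 43.1% (29.3 to 57.8%) in control cells, against 26.0% and 24.4%. In control cells the interval of this share lay above the share of all peaks, and in DF2 siRNA cells it held it. The intervals of the coding, stop codon, 3′ UTR and non-coding shares held that of all peaks in both lists. The 5′ UTR without the stop codon was the label of 23.8% of member peaks in DF2 siRNA cells and 31.4% in control cells, against 17.5% and 15.8%. Examples in both lists are NDUFB8, NDUFC1, UQCRH, NDUFA4 and COX11. Mitochondrial ribosomal protein genes had the stop codon in 61.4% and the 5′ UTR in 38.6% of their peaks in DF2 siRNA cells, and in 62.5% and 42.9% in control cells.

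**Figure D5:**
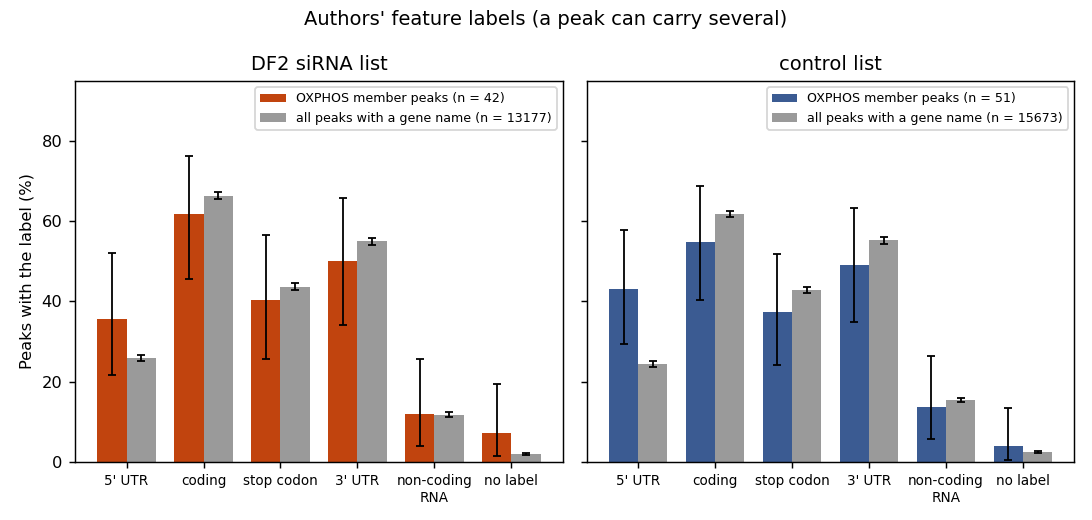
Bars give the percent of peaks (vertical axis) that carry each of the authors' feature labels, for member peaks (colour) and all peaks with a gene name (grey), in DF2 siRNA cells at left and control cells at right. Error bars are 95% exact binomial intervals. The 5′ UTR bar of the members stands at 35.7% in DF2 siRNA cells and 43.1% in control cells, above the grey bars at 26.0% and 24.4%.

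Most members had a single peak. At least 2 peaks were found in 10 of 31 member genes in DF2 siRNA cells (32.3%) and in 7 of 41 in control cells (17.1%), against 37.6% and 39.2% of all genes. They were NDUFA7, NDUFA11, NDUFV3, UQCR11, COX6A1, COX11, COX14, COX19, ATP5J2-PTCD1 and COX10-AS1 in DF2 siRNA cells, and NDUFA7, NDUFV3, COX10, COX14, NDUFAF1, ATP5J2-PTCD1 and NDUFA6-AS1 in control cells. NDUFA7 is among them only through 2 Ensembl gene IDs whose peaks overlap. The second COX19 peak lay outside the RefSeq gene and wholly on a peak of ADAP1.

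Other genes that act on these complexes are outside the naming rule. Of 41 further assembly factors, 27 had a peak, beside 27 of the 87 subunits. Neither share of genes with a peak has a share over all genes to be set against, and their difference was not tested. The peaks of these 27 factors were in both lists for 23, in DF2 siRNA cells alone for 1 and in control cells alone for 3. All genes in the lists had 75.2%, 5.76% and 19.0%. Of these 41, UQCC2, which serves complex III, had a peak in DF2 siRNA cells alone (fold enrichment 9.32). CYCS, cytochrome c, the carrier between complexes III and IV, had a 5′ UTR peak in both lists (15.5 in DF2 siRNA cells and 28.0 in control cells). Control cells alone had peaks in BCS1L, which inserts the Rieske protein (12.3), in COA6, a copper factor of complex IV (13.7), and in ATPAF2 of complex V (15.9). The highest fold enrichments were those of UQCC3 (152), SDHAF1 (144.5) and SCO2 (124) in DF2 siRNA cells and of SDHAF1 (172), TMEM186 (162.5) and COA7 (132) in control cells. SDHAF1 inserts iron-sulfur clusters into SDHB. SDHAF2 (36.3 in DF2 siRNA cells and 49.1 in control cells) and SDHAF3, listed as ACN9 (16.55 and 27.7), also had peaks in both lists. Complex II is thus represented in the lists through assembly factors although its subunits had no peak. ATP5IF1, the inhibitor of ATP synthase, listed as ATPIF1, had a peak in control cells alone with 3.58-fold enrichment and the score 3.

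Of 17 regulators of mitochondrial gene expression, 15 had a peak, 10 in both lists, 5 in control cells alone and 0 in DF2 siRNA cells alone, where all genes had 75.2%, 19.0% and 5.76%. The 5 were GABPA (fold enrichment 27.5), a subunit of the transcription factor NRF-2, TFAM (15.8) and TFB2M (17.8), which start transcription of mitochondrial DNA, POLG (10), which copies it, and SLIRP (12.4), which binds mitochondrial mRNA. The coactivators PPRC1 (106 in DF2 siRNA cells and 88.8 in control cells) and PPARGC1B (65.9 and 47.2) were highest in both lists, followed by CLUH (48.6) in DF2 siRNA cells and GABPB1 (47.0) in control cells. POLRMT and LRPPRC had no peak. None of the 13 mitochondrially encoded subunits had a peak, and the lists used here hold peaks on chromosomes 1 to 22 and X only.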

How the data were processed

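The submitters' processing notes name HISAT2 as aligner and hg38 as build, without a version. How peaks were called, annotated and filtered, and whether by strand, is not stated. The authors deposited 1 peak list per condition, tied by the labels to both immunoprecipitates. Per the file headers, a peak has a fold enrichment (a ratio), a score of unstated meaning, a −log10 value of an FDR (DF2 siRNA) or p-value (control), a gene name and a feature label. Library depth is unknown, and the number of peaks in a list depends on it and on the limit for calling a peak.

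Members were found by gene name, and names were looked up in RefSeq (GRCh38.p14) on the same chromosome within 100000 bp: all 43 matched, 9 by an older name (among them ATP5J as ATP5PF, ATP5J2 as ATP5MF, ATP5L as ATP5MG and NDUFA4 as COXFA4). Peak names rest on the authors' gene models: 26 of 42 DF2 siRNA and 28 of 51 control member peaks lay inside the RefSeq gene, 11 and 15 extended beyond it, and 5 and 8 lay outside. Read as deposited, the block sizes and starts of 2860 DF2 siRNA and 3918 control peaks did not end where the peak ends, in no case on the plus strand. Sizes of minus-strand peaks were therefore taken in reverse order, after which every peak closed at its end and no blocks overlapped. Overlap needed 1 shared exonic base on the same strand. Promoter sequences are from RefSeq, GRCh38.p14. Coordinates follow the peak lists and start at 1. Of the member peaks, 10 in DF2 siRNA and 9 in control cells shared bases with a peak of another Ensembl gene.

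With 1 list per condition no test was made. The members and lists were chosen with earlier results of these data known. Every member is named. Full values are given for members in 1 list only, the 5 highest by fold enrichment and by score per list, members with 2 or more peaks, non-overlapping best peaks or differing labels. From other gene lists, genes in 1 list only and the 3 highest per list are named. The alternatives were stricter peak limits, equal list lengths, short peaks, structural subunits, RefSeq names, a score floor, other overlap rules, the best peak per gene and, chosen after seeing the data, no peaks shared with another gene. The overlap procedure was tested on simulated intervals. Values per library, the m6A motif within exonic peaks and distances from the stop codon were not analysed here. Python 3.11.15, pandas 2.3.3, numpy 2.4.6, scipy 1.17.1 and matplotlib 3.10.9 were used.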

Additional observations from a re-analysis of the deposited data

How the results depend on the processing

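Of 57 values recomputed under other settings, 45 stayed within 1.5 times the main count or within the main interval. Genes in DF2 siRNA cells alone, 2 as reported, were 5 with the control list shortened to the length of the DF2 siRNA list by fold enrichment, 4 in the upper 50% of each list and 1 among structural subunits. Genes in both lists, 29 as reported, were 10 with a p or FDR 100 times smaller, 7 in the upper 50% and 18 among structural subunits, and genes in control alone, 12 as reported, were 7 in the upper 50%. In the shortened lists ATP5J2, NDUFA2 and NDUFS7 joined NDUFA11 and ATP5SL, and 8 genes were in control alone. With a p or FDR 100 times smaller, 10 of 16 DF2 siRNA member peaks overlapped (62.5%, 35.4 to 84.8%). In control cells 9 of 21 did (42.9%, 21.8 to 66.0%). Among peaks of at most 400 nt the median percentile was 51.1 in DF2 siRNA and 44.5 in control cells, and the median control fold enrichment 10.2. In these changes fewer peaks or members enter, and other causes were not tested. Counts and overlap shares under these settings were computed for members only. Without the shares of all genes and peaks, they do not show whether members changed differently from the whole lists. Leaving out peaks shared with another gene, a setting chosen after seeing the data, gave 3 genes in DF2 siRNA alone, 24 in both and 12 in control alone.

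No paired analysis was possible because each condition has 1 list and no test was made, and for the same reason leaving out 1 library at a time was not run. Unknown depth limits every count of peaks present in 1 list. Unlike peak limits do so too: the lowest −log10 value was 1.3 in both lists, of an FDR in DF2 siRNA cells but of a p-value in control cells. What this did to the length of the lists and to the single-list counts was not tested.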

Other observations

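The naming rule left out 2 pseudogene names, both with a peak in control cells alone. COX5BP6 had a peak labelled non-coding RNA at chr13:100623886-100624429, with 7.31-fold enrichment and the score 13, and NDUFA3P4 had one at chr15:90385814-90386063, with 12.1 and 14. The genes COX5B and NDUFA3 themselves had no peak in either list.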
